A study of Homo sapiens with 3 samples.

Results

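Among the day 1 cells of a human gastrulation-like culture, 269 of 3677 (7.32%, 95% interval 6.50 to 8.21%) carried RNA of both TBXT and MIXL1, transcription factor genes of the primitive streak, at a time when most cells of the culture carried neither. These TBXT+ MIXL1+ cells were selected on measured values: a cell entered with at least 1 UMI (unique molecular identifier, 1 captured RNA molecule) of each gene. They were set against the 2880 day 1 cells (78.3%) with 0 UMIs of TBXT and of MIXL1, called the double-negative cells here. The other day 1 cells had TBXT without MIXL1 (155 cells, 4.22%) or MIXL1 without TBXT (373 cells, 10.1%). The whole series held 18830 cells that passed the filters, a minimum of 1000 detected genes and a mitochondrial share of no more than 20% of UMIs.

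The study profiled the established human embryonic stem cell line UCLA1 by 10x Genomics single-cell RNA-seq after 1, 2 and 3 days of a culture named GiMO, grown under a Geltrex overlay, a basement membrane extract. Its title concerns the timing of the BMP4 response in the embryonic disc around implantation, cells with the factor TFAP2A, and epithelial-to-mesenchymal transition. Neither the timing of BMP4, if any was added, nor the number of cultures behind a library is given in the labels. TBXT+ MIXL1+ cells and double-negative cells shared 1 line, 1 culture format, 1 time and 1 library.

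With 1 library per day there was no replicate, so no test was run and p-values are absent. All intervals printed are at the 95% level and reflect counting error alone. Levels are in CPM, a gene's UMIs per 1000000 UMIs summed over all cells of a class, and a ratio is the CPM of TBXT+ MIXL1+ cells over that of double-negative cells. A gene is called higher or lower at a ratio of at least 1.5 in its direction, with a mean of at least 2 CPM over the 2 classes. A scarce gene can reach this minimum through 1 class alone, which favours a call toward that class. The TBXT+ MIXL1+ cells summed to 16465725 UMIs and the double-negative cells to 129593754.

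The primitive streak is the site in the early embryo where epiblast cells leave the epithelium and form mesoderm and endoderm. BMP, WNT and NODAL signals induce it in sequence, and TBXT, MIXL1 and EOMES are among the first transcription factors switched on. In streak-forming cells the pluripotency factor SOX2 falls early, while POU5F1 and NANOG persist longer, and MESP1 follows as cells become mesoderm.

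The cells were first described by the genes that chose them, which are no findings. TBXT (brachyury, ENSG00000164458, chromosome 6, 166157656 to 166168700 on hg38) had a median of 2 UMIs per TBXT+ MIXL1+ cell, a 90th percentile of 5 and a maximum of 16. MIXL1 (a Mix-like homeobox factor, ENSG00000185155, chromosome 1, 226223618 to 226227060) had a median of 4, a 90th percentile of 17 and a maximum of 54. Many cells sat close to the threshold: 134 (49.8%) had exactly 1 TBXT UMI, 64 (23.8%) exactly 1 MIXL1 UMI, and 43 exactly 1 of each. At the other end, 38 cells had at least 4 TBXT and at least 5 MIXL1 UMIs. The levels were 39.8 CPM for TBXT and 118 CPM for MIXL1, and these 269 cells held 78.0% of the TBXT and 73.4% of the MIXL1 UMIs of the day 1 library's cells that passed the filters.

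**Figure D1:**
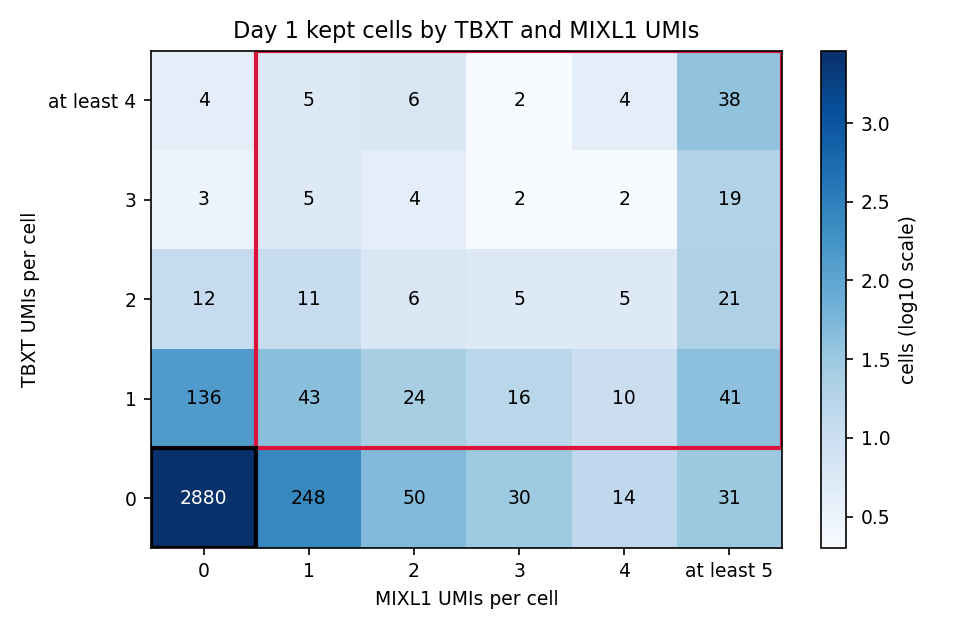
Number of day 1 cells by UMIs of MIXL1 (horizontal axis) and of TBXT (vertical axis) per cell, with colour on a log10 scale. The red frame holds the 269 TBXT+ MIXL1+ cells, of which 43 had 1 UMI of each gene, and the black frame the 2880 double-negative cells.

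Depth differed between the classes. TBXT+ MIXL1+ cells had a median of 56615 UMIs and 8199 genes, against 40016.5 UMIs and 7084 genes in double-negative cells. Their median mitochondrial share was 3.97%, against 4.44%. Detection of both genes went with depth. When day 1 cells were split by UMIs into 5 bins of equal size, 11 of 736 cells in the shallowest bin and 99 of 736 (13.5%) in the deepest had both genes. Within these bins, the product of the TBXT and MIXL1 shares would give 86.4 cells with both genes, and 269 were observed, a description of the rule's own genes. After random thinning of every cell to 10000 UMIs, 54 of 3585 day 1 cells (1.51%, 1.13 to 1.96%) still had both genes, against 2553 of 6578 (38.8%) on day 2 and 2070 of 6730 (30.8%) on day 3. Unthinned, 3554 of 7892 day 2 cells (45.0%) and 3217 of 7261 day 3 cells (44.3%) met the rule. By doublet score, 8 of the 269 TBXT+ MIXL1+ cells (2.97%) were among the highest-scoring day 1 cells, against 115 of the 2880 double-negative cells (3.99%). The highest-scoring cells were the top 144 by score, since the automatic threshold marked 0 day 1 cells. Whether they were doublets was not tested. Of the 269 barcodes, 1 also occurred in the day 2 library and 0 in the day 3 library. How far free RNA in the droplets contributed single UMIs was not tested.

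The promoters of 3 genes are printed because they carry the letters of motifs of the signals named above: MIXL1, which chose the cells, and SP5 and CDX2, which were among the highest genes in them. Each runs from 250 bases before to 50 after the gene's start, from RefSeq on GRCh38.p14, on the strand of the gene. Capitals mark CTTTG, the core of the motif of TCF and LEF factors (the DNA-binding partners of β-catenin in WNT signalling), and AATCCACA, a motif of FOXH1 (a DNA-binding partner of SMAD2 in NODAL signalling), each on either strand. In SP5, the FOXH1 motif overlaps a CTTTG. The MIXL1 window is chr1:226223414-226223713 on the plus strand, the SP5 window chr2:170715087-170715386 on the plus strand, and the CDX2 window chr13:27969266-27969565 on the minus strand.
MIXL1: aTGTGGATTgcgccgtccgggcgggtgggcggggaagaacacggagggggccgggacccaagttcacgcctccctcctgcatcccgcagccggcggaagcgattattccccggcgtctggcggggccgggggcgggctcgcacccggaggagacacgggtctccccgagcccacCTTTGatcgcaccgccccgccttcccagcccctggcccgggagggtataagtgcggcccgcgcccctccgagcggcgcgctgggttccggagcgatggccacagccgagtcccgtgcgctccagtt
SP5: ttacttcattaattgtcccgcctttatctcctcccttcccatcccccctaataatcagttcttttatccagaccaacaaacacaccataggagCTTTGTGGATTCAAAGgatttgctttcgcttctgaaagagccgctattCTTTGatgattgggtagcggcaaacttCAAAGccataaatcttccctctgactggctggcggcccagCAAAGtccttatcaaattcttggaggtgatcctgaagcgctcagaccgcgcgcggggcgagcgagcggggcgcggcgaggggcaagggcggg
CDX2: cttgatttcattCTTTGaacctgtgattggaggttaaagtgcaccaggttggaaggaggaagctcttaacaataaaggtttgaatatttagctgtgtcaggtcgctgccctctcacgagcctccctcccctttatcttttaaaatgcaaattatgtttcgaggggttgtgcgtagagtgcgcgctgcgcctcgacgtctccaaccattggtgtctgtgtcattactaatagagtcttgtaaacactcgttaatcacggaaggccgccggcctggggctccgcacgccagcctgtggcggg

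The SP5 window held 5 matches of CTTTG, 3 of which extended to CTTTGA, and the MIXL1 and CDX2 windows held 1 CTTTGA each. Of 27305 promoters of this length, 47.6% held a CTTTG, 13.1% a CTTTGA and 0.798% the FOXH1 motif. Of the 15 highest genes described next, 11 had a promoter in the table, and 4 of those (CDX2, LEF1, SP5 and EOMES) held a CTTTG (36.4%). The TBXT window held no match of CTTTG or of the FOXH1 motif. These matches describe the letters of the windows and were not tied to binding.

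TBXT+ MIXL1+ cells had higher levels of other streak transcription factors, of WNT target genes and of NODAL, and lower levels of SOX2, PRDM14 and the NODAL inhibitors LEFTY1 and LEFTY2, while POU5F1 and NANOG differed little. Of 13343 genes measured, 404 (3.03%) were higher and 392 (2.94%) lower, and 174 and 67 of them differed at least 2-fold. The median log2 ratio of all genes was −0.03. When each cell was weighted equally in place of its UMIs, 419 genes were higher and 652 lower.

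The primitive streak list held 21 genes besides TBXT and MIXL1, and 14 of them were measured. Of these, 12 were higher and 2 lower, with a median log2 ratio of 1.74 beside −0.03 for all genes, and their summed level was 649 CPM in TBXT+ MIXL1+ cells, against 243 CPM in double-negative cells. The 7 unmeasured members were GSC, FOXA2, GATA6, SP8, WNT5A, WNT8A and APLNR. Of the 12 higher genes, CDX1, FGF4 and LHX1 were at 1.37, 0.988 and 1.98 CPM in double-negative cells. They reached the minimum only through TBXT+ MIXL1+ cells, which favoured their call as higher. Among the transcription factors, the caudal homeobox genes CDX1 and CDX2, which pattern posterior tissue, stood at 18.0 and 26.3 CPM in TBXT+ MIXL1+ cells, against 1.37 and 3.12 CPM in double-negative cells. Their ratios were 13.2 (10.9 to 16.0) and 8.44 (7.35 to 9.68). EVX1, an even-skipped homeobox factor of the posterior streak, was at 24.4 CPM, against 2.52 CPM in double-negative cells, a ratio of 9.68 (8.34 to 11.2). EOMES (ENSG00000163508, chromosome 3, 27715949 to 27722711), the T-box factor that acts beside TBXT in mesoderm and endoderm formation, was at 63.9 CPM, against 12.8 CPM (ratio 5.01, 4.64 to 5.42). TBX3, another T-box factor, had a ratio of 3.56, and LHX1, a LIM homeobox factor of anterior mesendoderm, a ratio of 2.12 from only 69 UMIs in TBXT+ MIXL1+ cells. GSC, an anterior streak homeobox factor, was rare, with 19 UMIs (1.15 CPM) in TBXT+ MIXL1+ cells and 18 UMIs (0.139 CPM) in double-negative cells.

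Detection per cell was compared at a fixed depth. At 10000 UMIs per cell, EOMES was detected in 115 of 268 TBXT+ MIXL1+ cells (42.9%, 36.9 to 49.1%), against 284 of 2793 double-negative cells (10.2%, 9.07 to 11.4%). SP5 was detected in 50.4% and 7.77% of those cells, and CDX1 in 18.3% and 1.47%. Without thinning, EOMES was detected in 88.9% of TBXT+ MIXL1+ cells and 27.9% of double-negative cells, at the unequal median depths given above. The streak and WNT response lists together held 35 genes besides those of the rule. At 10000 UMIs, a TBXT+ MIXL1+ cell had a mean of 7.52 of these genes, a cell with TBXT alone 5.82, a cell with MIXL1 alone 5.65 and a double-negative cell 4.01. At least 5 of them were detected in 244 of 268 TBXT+ MIXL1+ cells (91.0%) and in 981 of 2793 double-negative cells (35.1%). Cells with TBXT alone (110 of 154, 71.4%) and with MIXL1 alone (240 of 370, 64.9%) lay between.

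**Figure D2:**
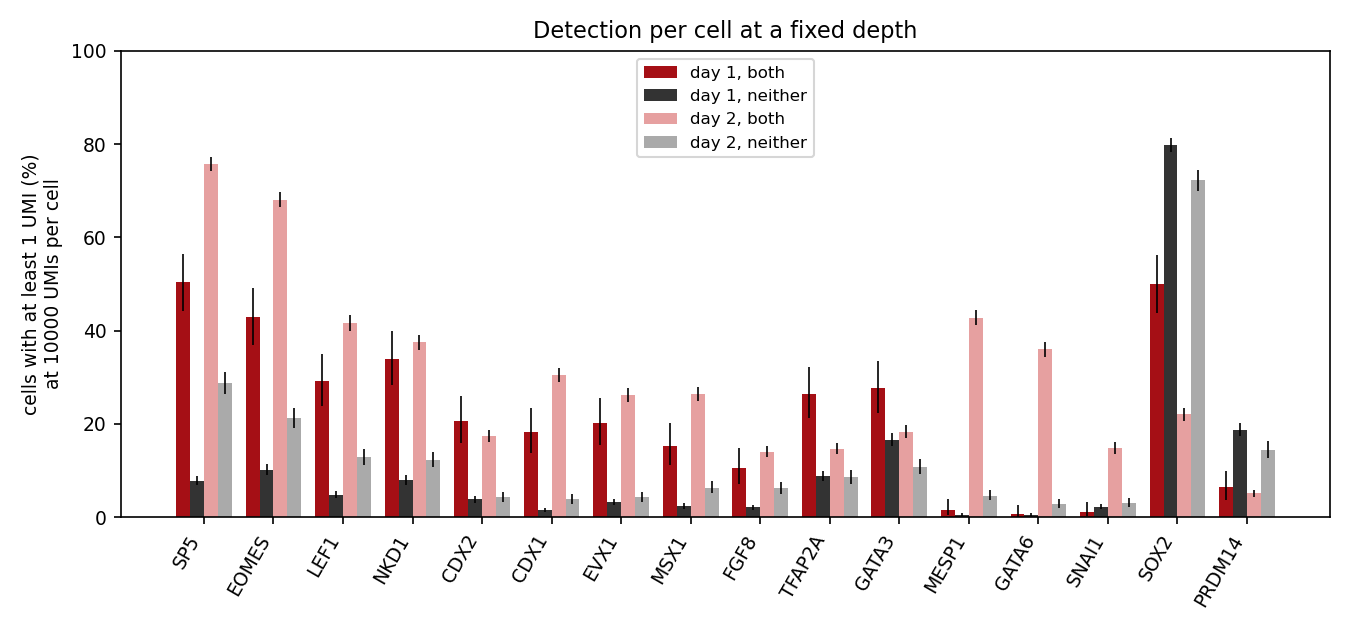
Share of cells with at least 1 UMI of a gene after thinning to 10000 UMIs per cell, in percent, for TBXT+ MIXL1+ cells (both) and double-negative cells (neither) of days 1 and 2, with exact binomial 95% intervals as bars. Of the day 2 cells, 191 TBXT+ MIXL1+ and 736 double-negative cells under 10000 UMIs are left out. SP5 was detected in 50.4% of day 1 TBXT+ MIXL1+ cells and 7.77% of day 1 double-negative cells, whereas MESP1 was detected in 1.49% of day 1 and 42.8% of day 2 TBXT+ MIXL1+ cells.

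The WNT response list, made of genes that β-catenin signalling is known to induce, had 11 of 15 members measured, of which 9 were higher and 0 lower (median log2 ratio 1.54). LEF1, a nuclear partner of β-catenin, was at 37.1 CPM in TBXT+ MIXL1+ cells, against 5.10 CPM in double-negative cells (ratio 7.26, 6.50 to 8.12). SP5, a zinc finger factor induced by WNT whose promoter is printed above, was at 69.9 CPM, against 9.65 CPM (ratio 7.24, 6.68 to 7.85). Feedback inhibitors were higher too. NKD1 stood at 48.0 CPM in TBXT+ MIXL1+ cells and 9.58 CPM in double-negative cells, AXIN2 at 16.5 and 6.30 CPM, RNF43 at 10.7 and 3.67 CPM, and NOTUM at 8.32 and 2.20 CPM. ZNRF3 (ratio 1.06) and BAMBI (1.07) were the measured members that did not differ by 1.5-fold. DKK1, a secreted WNT inhibitor, was below the level to be measured, at 2.07 CPM in TBXT+ MIXL1+ cells and 0.224 CPM in double-negative cells. TCF7L1, the TCF factor known to repress WNT targets in pluripotent cells, differed in the opposite direction, at 81.6 CPM in TBXT+ MIXL1+ cells and 206 CPM in double-negative cells (ratio 0.397, 0.375 to 0.419).

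WNT ligands and secretion factors were split, with 3 higher and 2 lower of 8 measured genes. WLS, which carries WNT proteins to the cell surface, was at 59.1 CPM in TBXT+ MIXL1+ cells, against 10.4 CPM in double-negative cells (ratio 5.69). WNT5B was at 42.5 CPM, against 8.20 CPM (ratio 5.19), and WNT3, the ligand that initiates the streak in mice, at 77.7 CPM, against 35.4 CPM (ratio 2.20, 2.06 to 2.34). The 2 lower genes were the receptor FZD7 (0.624) and the secreted antagonist SFRP1 (0.536). WNT3A, a streak ligand, was found at 2.55 CPM in TBXT+ MIXL1+ cells and 0.378 CPM in double-negative cells, below the level to be measured.

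In the NODAL pathway 3 of 11 measured genes were higher and 3 lower. NODAL itself, the TGF-β family ligand of streak induction, was at 139 CPM in TBXT+ MIXL1+ cells, against 50.5 CPM in double-negative cells (ratio 2.75, 2.62 to 2.88), and FOXH1 at 102 CPM, against 64.5 CPM (1.58). The extracellular inhibitors LEFTY1 and LEFTY2, which NODAL is known to induce, were lower. LEFTY1 stood at 37.4 CPM, against 81.0 CPM in double-negative cells (ratio 0.462, 0.425 to 0.501), and LEFTY2 at 32.7 CPM, against 51.9 CPM (0.630). CER1, a further NODAL inhibitor, had a ratio of 0.643 (0.529 to 0.774). FST, which binds activin and BMP proteins and was placed in the streak list, was at 150 CPM, against 53.1 CPM (ratio 2.83).

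The BMP response list had 4 of 14 measured genes higher and 0 lower (median log2 ratio 0.22). MSX1 (ENSG00000163132, chromosome 4, 4859665 to 4863936), a homeobox gene induced by BMP, had, TBXT and MIXL1 aside, the highest ratio of all genes with a mean of at least 10 CPM, at 20.9 CPM in TBXT+ MIXL1+ cells and 1.96 CPM in double-negative cells (10.7, 9.04 to 12.6). MSX2 (2.28), BMP7 (1.89) and ID2 (1.63) were the other 3. ID1 and ID3, direct SMAD targets with high levels in the library, differed less, at 775 CPM in TBXT+ MIXL1+ cells against 736 CPM in double-negative cells for ID1, and 910 against 677 CPM for ID3. BMP4 itself had a ratio of 1.21 (1.07 to 1.36). Among FGF pathway genes, 3 of 15 measured were higher and 1 lower: the ligands FGF8 (12.1 CPM in TBXT+ MIXL1+ cells, 2.44 CPM in double-negative cells, ratio 4.96), FGF4 (3.14) and FGF19 (1.86), and the ERK phosphatase gene DUSP6 (0.614).

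Genes of the amnion list were also higher, 7 of 12 measured with 0 lower and a median log2 ratio of 0.74. TFAP2A, the AP-2 factor of amnion and surface ectoderm named in the study's title, was at 31.5 CPM in TBXT+ MIXL1+ cells, against 9.59 CPM in double-negative cells (ratio 3.28, 2.96 to 3.64). GATA3 (1.68), HPGD (1.66), ISL1 (3.31), HAND1 (2.98), DLX5 (5.03) and CDX2 were the other 6. CDX2 also stands in the streak list and HAND1 in the nascent mesoderm list. The more specific amnion genes were at or near 0: TFAP2B had 0 UMIs, VTCN1 had 1 and GABRP had 13 in the 269 cells. TFAP2A and GATA3 were found together in 144 of 269 TBXT+ MIXL1+ cells (53.5%), against 474 of 2880 double-negative cells (16.5%). At 10000 UMIs these shares were 26 of 268 (9.70%, 6.44 to 13.9%) and 86 of 2793 (3.08%, 2.47 to 3.79%). Cells with TBXT alone and with MIXL1 alone lay between, at 38.7% and 34.9% unthinned. At 10000 UMIs they had 7.79% (4.09 to 13.2%) and 7.30% (4.86 to 10.4%), intervals that overlap that of TBXT+ MIXL1+ cells. Within the 269, the 176 cells with a TFAP2A UMI differed from the 93 without in both directions. EOMES was at 68.9 CPM in cells with TFAP2A and 51.8 CPM in cells without, CDX1 at 20.9 and 11.2 CPM, and WLS at 70.4 and 31.9 CPM. LEFTY2 was at 26.5 CPM in cells with TFAP2A and 47.5 CPM in cells without, and CER1 at 5.93 and 10.6 CPM. FGF8 differed little, at 11.7 and 13.1 CPM. No intervals are given for these levels. The cells with TFAP2A were also deeper, with a median of 64905.5 UMIs, against 44883 without, and the part of depth in this difference was not tested.

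Core pluripotency genes were level or lower: of 20 measured, 0 were higher and 5 lower, with a median log2 ratio of −0.28. POU5F1 stood at 1171 CPM in TBXT+ MIXL1+ cells and 1174 CPM in double-negative cells (ratio 0.997, 0.982 to 1.01), and NANOG at 57.8 and 59.5 CPM (0.970, 0.906 to 1.04). POU5F1 has near-identical pseudogenes that could share its reads. SOX2, in contrast, was at 102 CPM in TBXT+ MIXL1+ cells and 201 CPM in double-negative cells (ratio 0.508, 0.483 to 0.533). At 10000 UMIs it was detected in 134 of 268 TBXT+ MIXL1+ cells (interval 43.9 to 56.1%), against 2230 of 2793 double-negative cells (79.8%, 78.3 to 81.3%). PRDM14, a PR-domain factor that sustains the human pluripotent state, had the lowest ratio among genes with a mean of at least 10 CPM, at 6.74 CPM in TBXT+ MIXL1+ cells and 22.3 CPM in double-negative cells (0.302, 0.248 to 0.366). The deubiquitinase gene USP44 (0.424), the telomere protein gene TERF1 (0.593) and the DNA methyltransferase gene DNMT3B (0.627) completed the 5. In the primed epiblast list 3 of 10 genes were lower and 0 higher, namely OTX2 (0.550), DUSP6 (0.614) and FZD7 (0.624). Of the naive pluripotency list 1 of 10 genes was measured, KLF5, at 15.1 CPM in TBXT+ MIXL1+ cells and 6.37 CPM in double-negative cells.

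**Figure D3:**
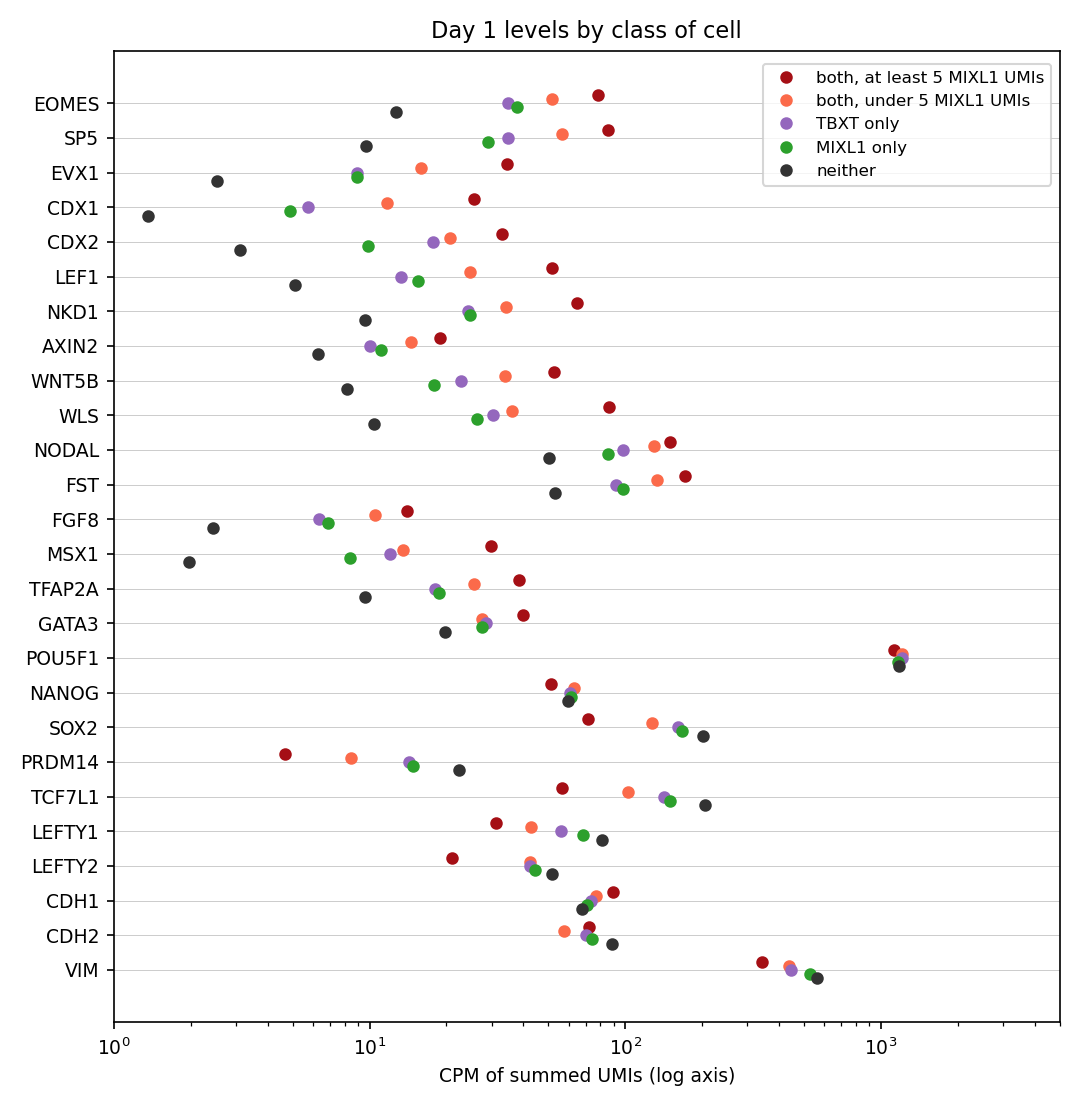
Levels of 26 genes in day 1 cells, in CPM on a log axis, for TBXT+ MIXL1+ cells with at least 5 or with under 5 MIXL1 UMIs, cells with TBXT or MIXL1 alone, and double-negative cells (neither). Cells with TBXT alone or MIXL1 alone lie between the double-negative cells and the TBXT+ MIXL1+ cells for EOMES, SP5 and SOX2, and POU5F1 lies near the same level in all classes.

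The remaining genes among the 15 highest were GAD1, which makes the transmitter GABA (51.3 CPM in TBXT+ MIXL1+ cells, 9.69 CPM in double-negative cells, ratio 5.30), the protocadherin PCDH10 (4.54), the axonemal protein gene TTC29 (4.23), the endolysosomal channel gene MCOLN3 (3.59), and the transcripts AC007405.1 (4.83) and AC007402.1 (3.53). AC007405.1 (chromosome 2, 170700368 to 170813670, minus strand) spans SP5 and overlaps the start of GAD1, which both lie on the plus strand. Besides PRDM14, TCF7L1 and USP44, the 15 lowest held 2 enzymes of amino acid breakdown, IDO1 for tryptophan (0.363) and AASS for lysine (0.367). They also held the actin adaptor SORBS2 (0.364), the ARF exchange factor IQSEC2 (0.389) and the SLIT receptor ROBO2 (0.454). ADARB2, NAV3, TOX, MGAT4C, AC022893.1 and LINC01194 were also among them, with ratios of 0.400 to 0.446.

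Genes of later fates were scarce at this time, with MESP1 and NANOS3 among those below the level to be measured. MESP1, the basic helix-loop-helix factor of nascent mesoderm, had 35 UMIs in TBXT+ MIXL1+ cells and 41 in double-negative cells, that is 2.13 and 0.316 CPM (ratio 6.72, 4.15 to 10.8), and at 10000 UMIs it was detected in 4 of 268 and 14 of 2793 cells. In the nascent mesoderm list 5 of 11 measured genes were higher (MSX1, MSX2, LEF1, LHX1 and HAND1) and PDGFRA lower (0.620, 0.452 to 0.833), with a median log2 ratio of 0.49. TBX6 (11 UMIs), MESP2 (6) and MSGN1 (1), which mark paraxial and early mesoderm, were near 0 in the 269 cells. Endoderm genes were mixed: GATA4 was higher at 3.83 CPM, against 0.517 CPM in double-negative cells, CER1 was lower, and FOXA2 had 4 UMIs. SOX17 was also below the level to be measured and was named after its values were seen. It had 25 UMIs (1.52 CPM) in TBXT+ MIXL1+ cells and 6 UMIs (0.0463 CPM) in double-negative cells, a ratio of 32.8 (13.1 to 97.8). At 10000 UMIs it was detected in 7 of 268 TBXT+ MIXL1+ cells (2.61%) and 2 of 2793 double-negative cells (0.0716%). Of the germ cell list 1 of 5 measured genes was higher, TFAP2A, and NANOS3 had a ratio of 1.15 (0.698 to 1.80).

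Markers of cell types that a streak-forming culture need not hold were sparse. Of the trophoblast list 0 of 3 measured genes were higher or lower, and 6 of its 11 members had 0 UMIs in the 269 cells, CGA among them, with summed levels of 14.6 CPM in TBXT+ MIXL1+ cells and 14.7 CPM in double-negative cells. Of the neural list 0 of 3 were higher or lower, and PAX6 and SOX1 had 0 UMIs. Of the hemato-endothelial list 0 of 2 were higher or lower, and CDH5 and GATA1 had 0 UMIs. With 3.03% of all measured genes higher and 2.94% lower, counts of 0 among 2 or 3 genes lie near that share. In the hypoblast list GATA4 was higher and PDGFRA and LEFTY1 were lower, of 4 measured.

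Genes of the epithelial-to-mesenchymal transition did not shift as a group. Of 19 measured epithelial genes 1 was higher, the desmosome gene DSP (67.1 CPM in TBXT+ MIXL1+ cells, 37.4 CPM in double-negative cells, ratio 1.79), and 0 were lower (median log2 ratio −0.08). CDH1, the epithelial cadherin, was at 82.4 CPM in TBXT+ MIXL1+ cells and 67.5 CPM in double-negative cells (1.22, 1.15 to 1.29). Of 12 measured mesenchymal genes CDH11 (1.94) and ITGA5 (1.56) were higher and 0 lower (median 0.07). CDH2, the mesenchymal cadherin, was at 64.4 CPM in TBXT+ MIXL1+ cells and 88.5 CPM in double-negative cells (0.727), and the intermediate filament gene VIM at 395 and 560 CPM (0.705). SNAI1, the zinc finger repressor of CDH1, had 29 UMIs (1.76 CPM) in TBXT+ MIXL1+ cells, against 1.87 CPM in double-negative cells.

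Cell state lists held few genes past 1.5-fold. Over all measured genes 3.03% were higher and 2.94% lower, so a count of 0 in lists this short lies near that share. Of 17 S phase and 17 G2/M genes 0 were higher or lower, with medians of −0.01 and 0.08. The integrated stress response (0 of 12) and p53 target (0 of 10) lists had no gene past 1.5-fold, the hypoxia and glycolysis list had HK2 lower (0.627) of 14, and the immediate early list had IER3 higher (1.84) and JUN lower (0.507) of 10. The medians of the S phase, stress, p53, hypoxia and immediate early lists changed sign under some processing alternatives. In an ANXA1-ADM list, taken from genes already known to vary together on day 1, 0 of 18 were higher and 3 lower, ADM (0.562) and the YAP targets CCN1 (0.455) and CCN2 (0.490).

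**Figure D4:**
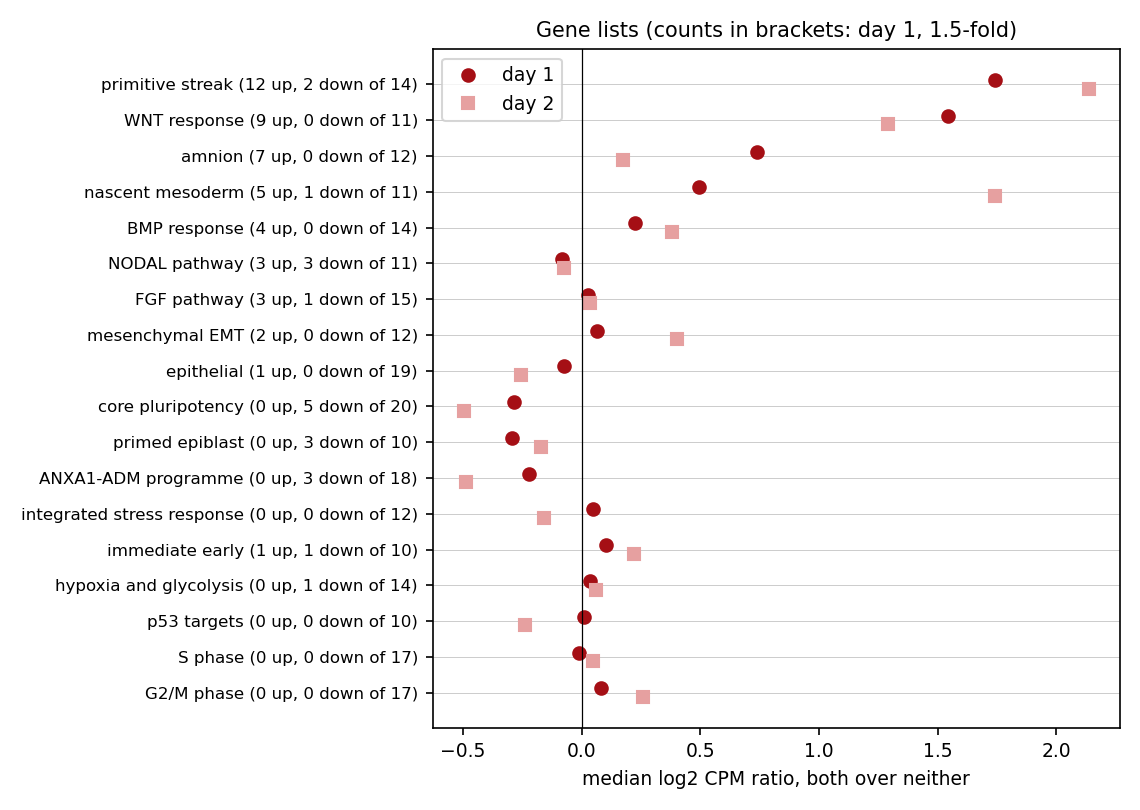
Median log2 CPM ratio of TBXT+ MIXL1+ over double-negative cells for 18 gene lists, with circles for day 1 and squares for day 2, and in brackets the day 1 counts of genes at least 1.5-fold higher (up) or lower (down) of those measured. The streak and WNT response lists lie farthest to the right on day 1, at 1.74 and 1.54.

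The TBXT+ MIXL1+ cells were graded among themselves. The 119 cells with at least 5 MIXL1 UMIs, compared with the 150 with fewer, had more MSX1 (29.8 and 13.5 CPM), CDX1 (25.6 and 11.7 CPM), LEF1 (51.8 and 24.7 CPM) and WLS (86.6 and 36.1 CPM), and less SOX2 (71.4 and 128 CPM), TCF7L1 (56.7 and 102 CPM) and VIM (344 and 437 CPM). POU5F1 was at 1126 CPM in the 119 cells and 1208 CPM in the 150. Grading by TBXT gave the same order for MSX1, CDX1, LEF1, WLS, TCF7L1 and SOX2, but not for all genes. Cells with 1, with 2 to 3 and with at least 4 TBXT UMIs (134, 80 and 55 cells) had SP5 at 53.6, 77.4 and 94.3 CPM, TFAP2A at 22.8, 31.2 and 50.6 CPM and SOX2 at 128, 92.5 and 60.4 CPM. Since the rule genes set these grades, they are a description. Median depths of the 3 TBXT grades were 50356.5, 64777.5 and 60559 UMIs.

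Cells at the edge of the rule were set beside those just outside it. The 43 cells with 1 UMI of each gene had EOMES at 41.1 CPM, SP5 at 37.8 CPM and SOX2 at 168 CPM. The 136 cells with 1 TBXT UMI and no MIXL1 had 35.4, 31.3 and 164 CPM of these genes, and the 248 with 1 MIXL1 UMI and no TBXT had EOMES at 28.1 CPM and SOX2 at 178 CPM. The edge cells had 1.21 times the SP5 level of the cells with TBXT alone and 1.89 times that of the cells with MIXL1 alone. These ratios were 1.16 and 1.46 for EOMES, and 1.02 and 0.943 for SOX2. No intervals are given for them. All 3 groups lay between the double-negative cells (12.8, 9.65 and 201 CPM) and the whole set of 269 (63.9, 69.9 and 102 CPM).

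The same rule was then applied to the day 2 library, where it found 3554 TBXT+ MIXL1+ and 2204 double-negative cells. There 614 of 14073 measured genes (4.36%) were higher and 1229 (8.73%) lower. Of the 404 genes higher on day 1, 231 were also higher on day 2, which is 57.2% of the day 1 and 37.6% of the day 2 genes, and 5 were lower. Of the 392 lower genes, 256 were lower on day 2 as well, 65.3% of the day 1 and 20.8% of the day 2 genes, and 3 were higher. Over 13146 genes the log2 ratios of the 2 days had a Pearson correlation of 0.66, a description across genes that share the line and the rule. On day 3, with 936 genes higher (6.71%) and 1274 lower (9.14%) of 13942, 109 of the 404 (27.0%) were higher and 76 lower, and 103 of the 392 (26.3%) were lower and 39 higher. Of the 404 and 392 genes, 386 and 376 were measured on day 2, and 360 and 316 on day 3. The unmeasured genes count as not shared in these percentages.

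**Figure D5:**
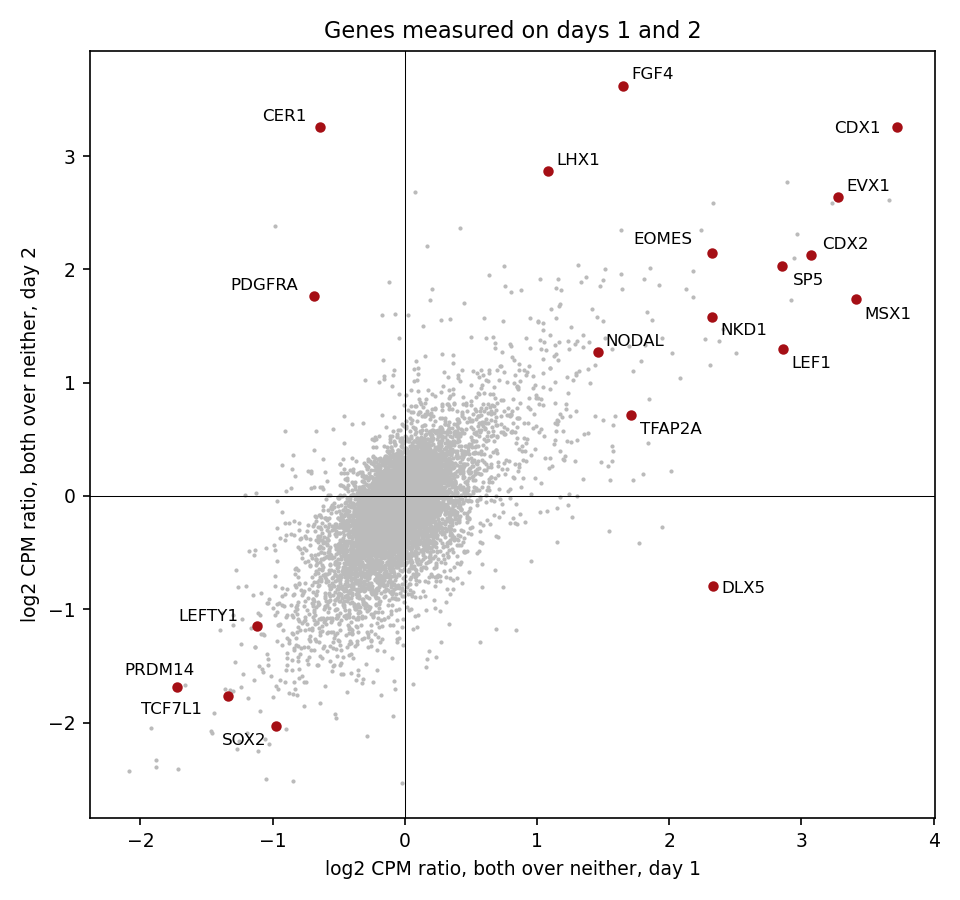
Log2 CPM ratio of TBXT+ MIXL1+ over double-negative cells on day 1 (horizontal axis) and day 2 (vertical axis), with 1 grey point per gene measured on both days and some named genes in red. CDX1, EVX1, CDX2, SP5 and EOMES lie high on both axes, whereas CER1 and PDGFRA were lower on day 1 and higher on day 2, and DLX5 the reverse.

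Of the streak list, 19 of 20 measured genes were higher on day 2 and 1 lower, with ratios of 4.43 for EOMES, 9.57 for CDX1 and 6.22 for EVX1. Of the WNT response list, 9 of 15 measured genes were higher on day 2 and 1 lower. SP5 (4.08), LEF1 (2.45) and NKD1 (2.99) were among the 9, whereas AXIN2 (1.47) and RNF43 (0.806), higher on day 1, were not past 1.5-fold on day 2. The 10 genes highest by ratio on day 2 (mean of at least 10 CPM) held CDX1, CER1, LHX1 and FGF4, which were measured on day 1, and 6 genes that were below the level to be measured on day 1. MESP1 reached 124 CPM in day 2 TBXT+ MIXL1+ cells, against 7.08 CPM in day 2 double-negative cells (ratio 17.5). GATA6, a zinc finger factor of mesoderm and endoderm, was at 81.6 CPM, against 5.09 CPM (16.0), where the day 1 TBXT+ MIXL1+ cells had 1.09 CPM. RSPO3, MSGN1 and CYP26A1 had day 2 ratios of 23.7, 19.6 and 12.9, and 3, 1 and 9 UMIs in the 269 day 1 cells. FGF4 and DKK1 had day 2 ratios of 12.3 and 17.6 and day 1 ratios of 3.14 and 9.23, with 34 UMIs of DKK1 in the 269 cells. The nascent mesoderm list had a median of 1.74 on day 2, with 12 of 18 genes higher. SNAI1 was at 17.4 CPM in day 2 TBXT+ MIXL1+ cells, against 3.74 CPM in day 2 double-negative cells (ratio 4.65), and CDH2 at 196 CPM, against 120 CPM (1.63).

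SOX2 was lower in TBXT+ MIXL1+ cells on day 2 as well, at 38.5 CPM, against 157 CPM in day 2 double-negative cells (ratio 0.245, 0.233 to 0.257), and POU5F1 again differed little (0.999). TFAP2A had a ratio of 1.64 on day 2, with 18.1 CPM in TBXT+ MIXL1+ cells, and on day 3 it was at 7.69 CPM, against 18.8 CPM in double-negative cells (0.408). In the amnion list 4 of 13 measured genes were higher and 3 lower on day 2, and 0 of 14 were higher and 13 lower on day 3. Levels set across days rest on separate libraries: day 2 over day 1 TBXT+ MIXL1+ cells had a median log2 ratio of 0.22 over 13683 genes, and day, library and batch cannot be told apart.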

How the data were processed

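The authors deposited 1 matrix of raw UMI counts per library (36601 genes), made with Cell Ranger 5.0.1 on hg38, per the submitters' processing notes. No later filter is stated there or in the labels. Cells needed a minimum of 1000 genes and a mitochondrial share of no more than 20%, which removed 1212 of 4889 day 1, 2688 of 10580 day 2 and 599 of 7860 day 3 barcodes. The automatic Scrublet threshold (scanpy 1.11.5) marked 0, 2 and 1 cells, so it did not work here, and removal of the highest scores (0.8% per 1000 barcodes) was an alternative. UMIs were summed per class with numpy 2.4.6, and intervals came from scipy 1.17.1: conditional binomial for ratios and binomial for shares, both exact. TBXT and MIXL1 were left out of all counts. Thinning left out 1 TBXT+ MIXL1+ and 87 double-negative day 1 cells under 10000 UMIs. On day 2 it left out 191 of 3554 TBXT+ MIXL1+ and 736 of 2204 double-negative cells. The computation was tested on simulated data. Members, gene lists and alternatives were chosen with earlier results of these data known, and some genes stand in several lists. Genes named were list members, the 15 highest and 15 lowest by ratio with a mean of at least 10 CPM whose call held with double-negative cells matched on depth, and the 10 highest within day 2. Some of the 15 highest, such as MSX1, EVX1 and CDX2, reached 10 CPM only through TBXT+ MIXL1+ cells. Some of the 15 lowest, such as PRDM14, reached it only through double-negative cells. Not every list member is named, and 1 of the 15 lowest is not reported here. Gene positions are from GENCODE on hg38. Promoters are from RefSeq, GRCh38.p14. Near-identical gene copies and overlapping genes could share reads in the authors' counting.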

Additional observations from a re-analysis of the deposited data

Results flagged for a closer look

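The ratio of TBXT+ MIXL1+ over double-negative cells lay past 1.5-fold in opposite directions on days 1 and 2 for 5 genes higher and 3 lower on day 1, and on days 1 and 3 for 76 genes higher and 39 lower on day 1. The 6 described here were taken for day 2 from all genes of the lists and for day 3 from the 15 highest and 15 lowest of day 1, so they are not a full set. TFAP2A (3.28 on day 1, 0.408 on day 3) and HAND1 (2.98, 0.553) are list members that also reversed by day 3. The difference between days was not tested, since each day had 1 library. CER1, an inhibitor of NODAL, had a ratio of 0.643 on day 1 and 9.56 on day 2. PDGFRA, a receptor of mesoderm cells, had 0.620 on day 1 and 3.39 on day 2. DLX5, a distal-less homeobox gene in the amnion list, had 5.03 on day 1 and 0.576 on day 2. CDX2 had 8.44 on day 1 and 0.525 on day 3, where its level was 20.4 CPM in TBXT+ MIXL1+ cells and 38.8 CPM in double-negative cells. The ligand gene WNT5B had 5.19 on day 1 and 0.407 on day 3, and the channel gene MCOLN3 3.59 and 0.438. The double-negative cells of the later days are another set of cells than those of day 1 and were shallower. The part of either in these reversals was not tested.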

How the results depend on the processing

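No paired analysis was possible because each day had 1 library and no replicate numbers. The 30 genes chosen by size of ratio stayed past 1.5-fold under all 7 alternatives of cell choice, weighting and scaling, but they had the most extreme ratios and were chosen to hold under 1 of the 7 (matched depth). The streak list median ranged from 1.72 to 2.07. Requiring 2 UMIs of each rule gene left 114 cells (3.10%) and gave 666 higher genes. Thinning to 20000 UMIs before applying the rule left 121 cells of 3250 (3.72%) and gave 1045 higher and 833 lower genes, with 366 higher on both day 1 and day 2. A minimum of 10 CPM, which tests fewer genes, gave 149 higher, 151 lower and 97 shared higher genes and a nascent mesoderm median of 1.19. A 2-fold limit gave 174 higher, 67 lower and 95 shared higher genes. Equal weight per cell gave 652 lower genes. The causes of the larger counts were not tested. At 2 CPM the 269 cells hold 33 UMIs of a gene, so scarce genes such as MSGN1 and FOXA2 could not be compared at this depth.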
